A study of Mus musculus with 14 samples.

Results

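A set of 10 collagen genes outside the fibrillar family was followed in mouse hepatic stellate cells (HSCs) during the first days of culture, with and without valproic acid (VPA). The set holds Col4a1 and Col4a2 of basement membrane collagen IV, Col6a1, Col6a2 and Col6a3 of beaded collagen VI, Col8a1 and Col8a2 of short-chain collagen VIII, the fibril-associated Col12a1 and Col14a1, and Col15a1 of the basement membrane zone. Each gene was read from the probe set that carries its symbol and no other. All 10 genes had exactly 1 such probe set, out of 23410 probe sets with a gene symbol and 35557 in all.

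The cells were primary HSCs isolated from livers of BalbC mice (Balb/cByJ in the methods of the study) on a density gradient, so they come from the animal and not from a line, and each array holds 1 culture. Time is counted from the wash that removed unattached cells. The tested agent was 2.5 mM VPA, an inhibitor of histone deacetylases. The treated cultures form the groups VPA4h and VPA64h, named by the hours in culture, with 3 arrays apiece. Untreated cultures form Ctrl4h (3 arrays), the 2 arrays of Ctrl16h, and Ctrl64h, again with 3. All groups share the isolation and the serum-containing medium, and there is no freshly isolated sample and no VPA sample at 16 h among the 14 arrays. The values are log2 levels, so that a difference of 1 is a 2-fold change, and they are relative to the other genes of an array.

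HSCs store vitamin A in the space between hepatocytes and the sinusoidal endothelium. After liver injury, or on a culture dish, they become activated and turn into myofibroblast-like cells that lay down scar matrix. Collagen IV chains assemble into the sheet-like network of basement membranes, and collagen VI chains combine, one of each kind, into beaded microfilaments close to the cell surface. Collagen VIII builds a network in vessel walls and in the membrane under the corneal endothelium. Collagens XII and XIV sit on the surface of collagen I fibrils, and collagen XV bridges basement membranes to the fibrils beneath.

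Promoter sequences from RefSeq (build GRCm38.p6) were at hand for 8 of the 10 genes, and Col12a1 and Col14a1 were not among them. Col4a1 and Col4a2 lie head to head on chromosome 8, and the stretch at chr8:11312801-11312830 shows how close they start. It is given on the plus strand, with the 22 bases between the transcript starts used here, both included, in capitals and 4 bases on each side in lower case. The gene model of Col4a1 as a whole reaches further, to base 11312889. Col4a2 is read rightwards from base 11312805, and Col4a1 leftwards, on the minus strand, from base 11312826.
Col4a1 and Col4a2 starts: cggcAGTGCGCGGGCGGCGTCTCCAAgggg

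The 250 bases before the start are shown for both collagen VIII genes, whose measured profiles differed most within a type, and for Col6a1. Among the collagen VI chains of the followed set, Col6a1 alone was called. The Col8a2 probe set was dim, so its flat reading does not show that this gene stayed level. Capitals mark a match, on either strand, to 1 of 5 motifs. These were the AP-1 element TGANTCA, the GC box GGGCGG, the box named for its letters CCAAT, the TATA element TATAAA and the TEAD element GGAATG; adjacent GC boxes can share letters. The windows are chr16:57754738-57754987 on the minus strand for Col8a1, chr4:126286544-126286793 on the plus strand for Col8a2 and chr10:76726045-76726294 on the minus strand for Col6a1. Each is printed in the direction of its gene.
Col8a1: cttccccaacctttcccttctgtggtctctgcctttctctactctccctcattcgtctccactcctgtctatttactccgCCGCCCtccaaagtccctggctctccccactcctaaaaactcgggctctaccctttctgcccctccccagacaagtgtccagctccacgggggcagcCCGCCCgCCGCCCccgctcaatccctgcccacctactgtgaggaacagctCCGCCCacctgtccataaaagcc
Col8a2: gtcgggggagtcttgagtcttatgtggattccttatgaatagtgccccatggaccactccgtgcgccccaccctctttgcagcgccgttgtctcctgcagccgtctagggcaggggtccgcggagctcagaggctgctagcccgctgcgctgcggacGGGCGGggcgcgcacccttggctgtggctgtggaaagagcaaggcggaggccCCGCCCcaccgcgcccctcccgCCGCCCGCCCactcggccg
Col6a1: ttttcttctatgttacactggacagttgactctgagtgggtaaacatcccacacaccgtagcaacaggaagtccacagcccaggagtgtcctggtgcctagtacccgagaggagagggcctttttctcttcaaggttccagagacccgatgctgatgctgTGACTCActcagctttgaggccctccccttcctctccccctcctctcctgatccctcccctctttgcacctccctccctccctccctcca

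Both collagen VIII windows held 4 GC boxes, and the only match in the Col6a1 window was an AP-1 element, TGACTCA, 90 to 84 bases before the start. A GC box was present in 32.7% and an AP-1 element in 6.75% of 32851 mouse promoter windows of this length. CCAAT boxes, found in 33.8% of the windows, stood once each before Col4a1 and Col4a2, and 2 GC boxes stood before Col4a2. The 2 overlapping windows of Col6a2 held 3 and 1 GC boxes, and the first also held a TEAD element, which 12.6% of windows have. The TATA letters, present in 12.4% of windows, were in none of these windows, and Col6a3 and Col15a1 matched none of the 5 motifs.

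**Figure D1:**
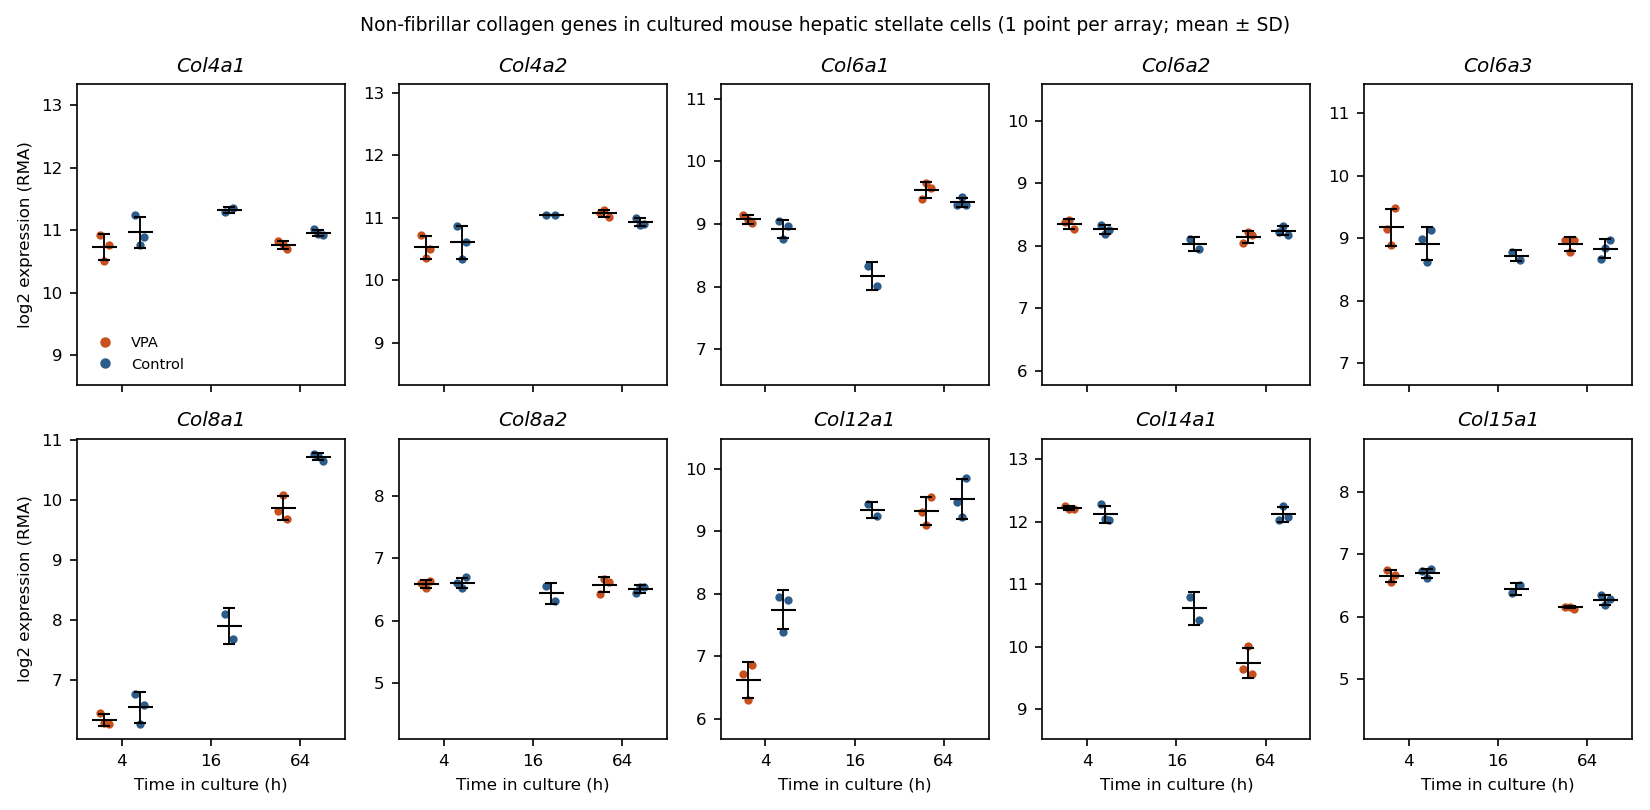
Log2 expression of the 10 collagen genes (y axis, RMA values; every panel spans at least 4.8 units) against time in culture (x axis, 4, 16 and 64 h, spaced evenly and not to scale), with 1 point per array, VPA in orange to the left of control in blue, and the mean ± SD in black. Col8a1 and Col12a1 climb, Col14a1 is low in both Ctrl16h arrays and lowest in VPA64h, and Col6a1 dips only at 16 h, while Col6a2, Col6a3 and Col8a2 stay almost level. Heights of different panels are not comparable, because probe sets differ in brightness.

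The identity of the cells was checked first. Desmin (Des), a filament protein of HSCs, averaged 9.06 ± 0.10 in VPA4h, 8.59 ± 0.03 in Ctrl4h, 9.35 ± 0.01 in Ctrl16h, 9.85 ± 0.11 in VPA64h and 10.55 ± 0.02 in Ctrl64h (log2, SD). Acta2, the smooth muscle actin of activated HSCs, averaged 9.25 ± 0.21 in VPA4h, 10.14 ± 0.18 in Ctrl4h, 11.76 ± 0.27 in Ctrl16h, 11.80 ± 0.16 in VPA64h and 12.97 ± 0.02 in Ctrl64h. Both genes rose in control culture. Of 13 stellate markers measured, Des and Hand2 were at least 2-fold higher in Ctrl64h than in Ctrl4h with an adjusted p under 0.05 (limma), as 6.68% of all probe sets were, and 7 were lower by the same limits, as 3.71% of all were, among them Reln, at 11.09 ± 0.14 in VPA64h and 10.72 ± 0.23 in Ctrl64h, against 12.29 ± 0.08 in Ctrl4h. Gfap, a filament protein also used as an HSC marker, was dim throughout, with group means of 5.13 to 5.68, below the array medians of 6.34 to 6.41. The mean log2 level over 10 hepatocyte markers lay between 5.47 and 6.45 and that over 12 Kupffer cell markers between 5.58 and 6.14 on all arrays. Single markers could be brighter. Alb averaged 8.31 ± 0.60 in Ctrl4h and 7.28 ± 0.81 in Ctrl64h. It alone of the 10 hepatocyte markers was lower in Ctrl64h by the limits above, as 3.71% of all probe sets were. Lyz2, of the Kupffer cell list, averaged 8.11 ± 0.93 in Ctrl4h, 7.24 ± 0.25 in Ctrl16h and 9.03 ± 0.66 in Ctrl64h. Of that list 0 markers passed these limits in Ctrl64h over Ctrl4h. The mean over 12 sinusoidal endothelial markers ran from 6.60 to 6.94 in VPA4h, 6.75 to 7.02 in Ctrl4h, 6.36 to 6.46 in Ctrl16h, 6.12 to 6.17 in VPA64h and 6.32 to 6.61 in Ctrl64h. In such bulk RNA, fewer cells of a type and less RNA per cell cannot be told apart.

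A gene was called when its adjusted p, from limma over the 23410 probe sets, was under 0.05 and its change at least 2-fold. Between 4 and 16 h of control culture 3 of the 10 collagens were called, Col8a1 and Col12a1 higher and Col14a1 lower, where 1.91% of all tested probe sets were called. Between 16 and 64 h 3 of 10 were called, Col6a1, Col8a1 and Col14a1, all higher, against 6.6% of all. Over the whole span, Ctrl64h against Ctrl4h, 2 of 10 were called, Col8a1 and Col12a1, both higher, against 10.4% of all. The 3 comparisons share arrays and are not independent. Their median log2 changes over the 10 genes were -0.184, 0.145 and -0.00607, beside -0.0114, -0.0741 and -0.0887 over all tested probe sets.

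**Figure D2:**
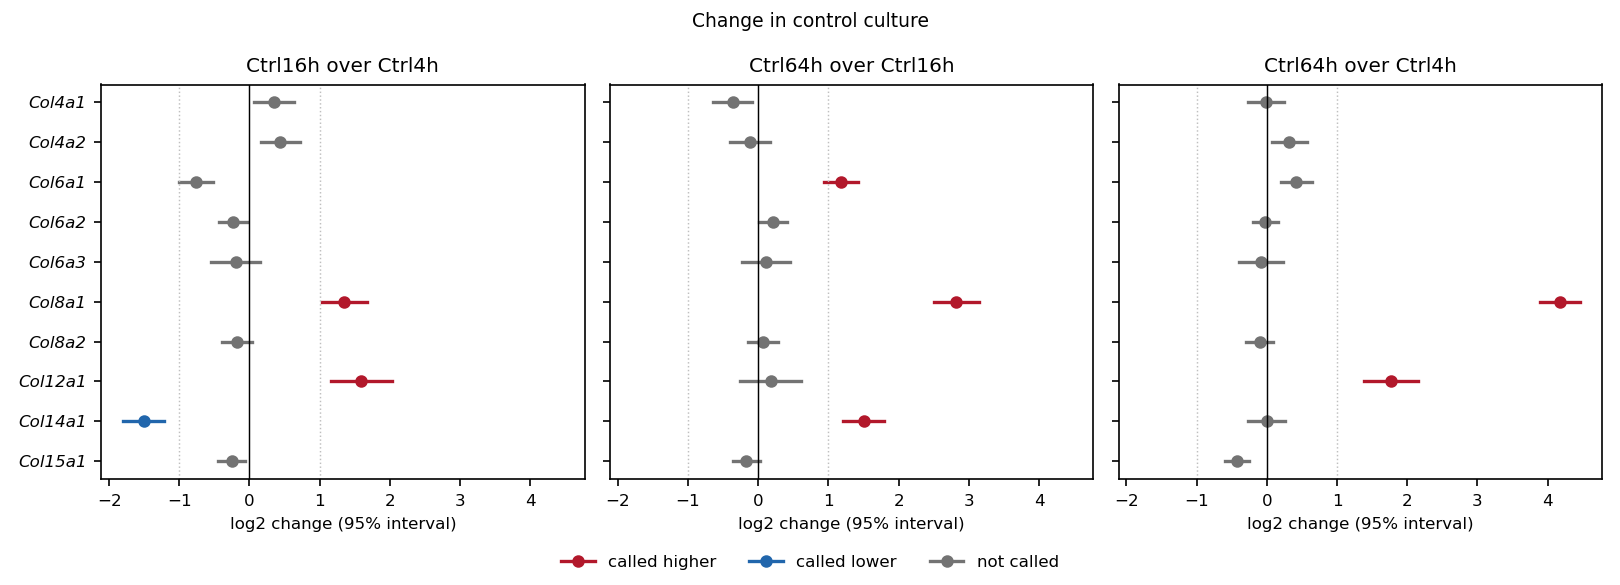
Log2 change of each collagen gene (x axis, with its 95% interval as a bar) in Ctrl16h over Ctrl4h, Ctrl64h over Ctrl16h and Ctrl64h over Ctrl4h, with called genes in red (higher) or blue (lower) and the others in grey; dotted lines mark a 2-fold change. Col14a1 and Col6a1 move down and then up, Col12a1 is called in the first interval and not in the second, and Col8a1 moves up in both.

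Without the 2-fold limit, 5 of 10 collagens had an adjusted p under 0.05 in Ctrl16h against Ctrl4h, where 20.1% of all probe sets did, and 5 of 10 in Ctrl64h against Ctrl4h, where 56.7% of all did. The second share is below that of the whole array. The smaller changes belong to Col4a2, Col6a1 and Col15a1 and are given with each gene.

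Col8a1, which encodes the α1 chain of collagen VIII, made the largest change of the 10 genes. It measured 6.44, 6.28 and 6.26 in VPA4h and 6.77, 6.27 and 6.58 in Ctrl4h. At 16 h the control arrays stood at 8.10 and 7.68. At 64 h the levels were 9.82, 10.07 and 9.68 in VPA64h and 10.76, 10.73 and 10.65 in Ctrl64h. The 4 h groups overlapped, while every later group was clear of the others, in the order Ctrl16h, VPA64h and Ctrl64h from low to high. Col8a1 rose by 1.35 (SE 0.15, adjusted p = 1.16e-05) in Ctrl16h over Ctrl4h and by a further 2.82 (SE 0.15, adjusted p = 1.83e-09) in Ctrl64h over Ctrl16h. The whole change, 4.17 on the log2 scale (95% interval 3.89 to 4.46), is 18.0-fold. The Ctrl4h arrays lay near the array medians, and the values carry no detection call, so this fold rests on a dim starting level.

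VPA-treated cells also gained Col8a1, by 3.53 in VPA64h over VPA4h (adjusted p = 4.76e-11). Their 64 h level nevertheless lay under that of the controls. The difference, -0.85 (SE 0.14, adjusted p = 0.000245), means 1.81-fold less transcript in VPA64h than in Ctrl64h, which falls short of the 2-fold limit. At 4 h the VPA effect was -0.21 (95% interval -0.50 to 0.08, adjusted p = 0.346). Col8a2, the α2 chain of the same collagen, did not pass the test in any of the 8 comparisons. Over the 14 arrays it stayed between 6.32 and 6.69, all groups overlapped with their neighbours in level, and its values in the 8 comparisons ran from -0.17 (Ctrl16h over Ctrl4h, adjusted p = 0.283) to 0.09 (difference of the VPA effects). For Ctrl64h against Ctrl4h its 95% interval was -0.29 to 0.09. The Col8a2 probe set was dim, close to the array medians on all arrays, and its flat course is not set against the rise of Col8a1.

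Col12a1, the α1 chain of fibril-associated collagen XII, was the only one of the 10 genes called after 4 h of VPA. It measured 6.72, 6.30 and 6.86 in VPA4h and 7.95, 7.39 and 7.90 in Ctrl4h, without overlap. In later samples it read 9.43 and 9.25 in Ctrl16h, 9.31, 9.11 and 9.55 in VPA64h, and 9.48, 9.22 and 9.85 in Ctrl64h. These 3 groups overlapped and all lay above both 4 h groups. In control culture the rise fell between 4 and 16 h, with 1.59 (SE 0.20, adjusted p = 4.23e-05), and the following change of 0.18 (95% interval -0.26 to 0.61) did not pass the test.

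With VPA, Col12a1 fell by 1.12 on the log2 scale at 4 h (SE 0.18, adjusted p = 0.000251), which is 2.17-fold lower than in Ctrl4h. Leaving out VPA4h replicate 2, the lowest array, gave -0.96 with an adjusted p of 0.00214, short of 2-fold. At 64 h the VPA effect was -0.19 (95% interval -0.58 to 0.19, adjusted p = 0.499). The VPA4h arrays lay near the array medians, so that folds against them rest on a dim level. The rise within VPA culture was 2.70 in VPA64h over VPA4h (6.48-fold, adjusted p = 8.59e-09) beside 1.77 in Ctrl64h over Ctrl4h (3.41-fold, adjusted p = 6.25e-07), and the test of this difference is the same as that of the difference between the VPA effects.

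Col14a1, the α1 chain of fibril-associated collagen XIV, took a course of its own. Its levels were 12.24, 12.20 and 12.20 in VPA4h and 12.28, 12.05 and 12.02 in Ctrl4h. The 2 Ctrl16h arrays gave 10.80 and 10.42. At 64 h it measured 9.64, 10.01 and 9.57 in VPA64h, against 12.02, 12.25 and 12.07 in Ctrl64h. The Ctrl64h arrays were back in the range of both 4 h groups, the Ctrl16h arrays lay apart below them, and the VPA64h arrays lay lower still, with no overlap between these steps.

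In control culture Col14a1 fell by 1.51 on the log2 scale from 4 to 16 h (2.84-fold lower, SE 0.14, adjusted p = 1.84e-06) and rose by 1.505 from 16 to 64 h (2.84-fold higher, SE 0.14, adjusted p = 4.72e-07). The net change in Ctrl64h over Ctrl4h was -0.0012 with a 95% interval of -0.26 to 0.26. VPA64h cells held 5.19-fold less Col14a1 transcript than Ctrl64h cells, a log2 difference of -2.38 (SE 0.12, 95% interval -2.64 to -2.11, adjusted p = 7.71e-09). Against VPA4h the difference was -2.48 (adjusted p = 3.76e-10). At 4 h the VPA effect was 0.10 (95% interval -0.16 to 0.36, adjusted p = 0.695).

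Marker lists of HSCs and of other liver cells are given beside these Col14a1 values. Over the 13 stellate markers measured, the mean log2 level was 9.45 to 9.59 in VPA4h, 9.35 to 9.41 in Ctrl4h, 8.61 to 8.70 in Ctrl16h, 8.62 to 8.74 in VPA64h and 8.50 to 8.67 in Ctrl64h. Of these 13 markers, 5 were called lower in Ctrl16h than in Ctrl4h, where 1.91% of all probe sets were called. In VPA64h against Ctrl64h 6 stellate markers were higher, and 3 were lower, counting those with an adjusted p under 0.05, which 24% of all probe sets had. The mean over the stellate list ran lower in Ctrl16h than in Ctrl4h, as Col14a1 did. It did not return in Ctrl64h and was not lower in VPA64h than in Ctrl64h. Single markers could differ from this mean. From 16 to 64 h of control culture 3 of the 13 were called higher and 1 lower, against 6.6% of all probe sets. Lrat, 1 of those higher, averaged 7.23 ± 0.29 in Ctrl4h, 5.59 ± 0.46 in Ctrl16h and 7.66 ± 0.26 in Ctrl64h. With VPA it averaged 8.01 ± 0.39 in VPA4h and 7.91 ± 0.06 in VPA64h. In the list of 14 portal fibroblast, mesothelial and cholangiocyte markers, Thy1 averaged 8.42 ± 0.21 in VPA64h and 7.05 ± 0.06 in Ctrl64h. Cd34 averaged 8.05 ± 0.53 in VPA64h and 6.33 ± 0.11 in Ctrl64h. These 2 alone of the 14 were called in VPA64h against Ctrl64h, both higher, where 1% of all probe sets were called higher. At an adjusted p under 0.05, 3 of the 14 were higher and 1 was lower, against 24% of all. The median change of the list was 0.0508, beside 0.00367 over all probe sets. Its mean level was 6.20 to 6.52 in VPA64h and 6.03 to 6.26 in Ctrl64h. The endothelial marker Plvap averaged 12.01 ± 0.10 in VPA4h, 11.98 ± 0.17 in Ctrl4h and 10.62 ± 0.18 in Ctrl16h. At 64 h it averaged 9.97 ± 0.26 in VPA64h and 10.93 ± 0.21 in Ctrl64h. The other endothelial markers were dimmer, with means of 5.50 to 7.21 in Ctrl4h, so the level of Plvap does not stand for the list. Plvap alone of the 12 endothelial markers was called in Ctrl16h against Ctrl4h, at -1.36 (limma, adjusted p = 1.19e-05), against 1.91% of all probe sets. In VPA64h 5 of the 12 had a lower level than in Ctrl64h at an adjusted p under 0.05, each short of 2-fold. In either direction 24% of all probe sets passed. The part of other cell types in the Col14a1 result was not tested.

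Col6a1, the α1 chain of collagen VI, shared the low 16 h value with Col14a1 in control culture. It measured 9.15, 9.07 and 9.01 in VPA4h and 9.04, 8.76 and 8.97 in Ctrl4h. The Ctrl16h arrays stood at 8.32 and 8.003. At 64 h the levels were 9.40, 9.66 and 9.57 in VPA64h and 9.30, 9.43 and 9.31 in Ctrl64h. The Ctrl16h arrays lay below all others and the 64 h arrays above all 4 h arrays, while VPA and control overlapped at both times. Within pairs of the same replicate number the VPA array was the higher in 6 of 6, by 0.11, 0.31 and 0.04 at 4 h and by 0.10, 0.23 and 0.27 at 64 h. For Col4a1 and Col12a1 it was the higher in 0 of 6, and the share over all probe sets was not counted. With the pairs as a block the VPA effect on Col6a1 was 0.15 at 4 h (adjusted p = 0.408) and 0.20 at 64 h (adjusted p = 0.217), and neither passed the test. The first change was -0.76 (1.70-fold lower, SE 0.12, adjusted p = 0.000195), under the fold limit, and the second, 1.18 (2.27-fold higher, SE 0.12, adjusted p = 9.97e-07), was called. Net, Ctrl64h was above Ctrl4h by 0.42 (SE 0.10, adjusted p = 0.00279), and VPA64h above VPA4h by 0.47 (adjusted p = 0.00152).

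The partner chains Col6a2 and Col6a3 did not pass the test in any of the 8 comparisons. In VPA64h over VPA4h Col6a2 (-0.20, adjusted p = 0.0574) reached an adjusted p under 0.05 in 6 and Col6a3 (-0.27, adjusted p = 0.137) in 3 of 22 alternatives. Col6a2 ranged from 7.96 to 8.41 over the 14 arrays. Its 2 Ctrl16h arrays, 8.11 and 7.96, were below all Ctrl4h arrays, which began at 8.19, but the change was only -0.23 (95% interval -0.43 to -0.03, adjusted p = 0.104). Col6a3 ranged from 8.63 to 9.49, and in order of level each of its 5 groups overlapped the next. For Ctrl64h over Ctrl16h, the interval in which Col6a1 was called, the 95% intervals were 0.94 to 1.43 for Col6a1, 0.01 to 0.41 for Col6a2 and -0.23 to 0.46 for Col6a3, and the difference between the chains was not tested.

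Col4a1 and Col4a2, whose chains form the common network of basement membranes, were bright on all arrays and changed by less than 2-fold in every comparison. Col4a1 measured 10.93, 10.50 and 10.76 in VPA4h, 11.24, 10.76 and 10.89 in Ctrl4h, 11.29 and 11.35 in Ctrl16h, 10.82, 10.77 and 10.70 in VPA64h, and 11.01, 10.94 and 10.92 in Ctrl64h. Its Ctrl16h arrays were the highest of the 14, the 4 h groups overlapped each other, and VPA64h lay just below Ctrl64h. Within pairs of the same replicate number its VPA array was the higher in 0 of 6. The VPA effect was -0.23 at 4 h (adjusted p = 0.208) and -0.19 at 64 h (adjusted p = 0.287), and neither passed the test. The descent from 16 h to Ctrl64h, -0.36 (SE 0.13, adjusted p = 0.037), had an adjusted p under 0.05 in 15 of 22 alternative analyses, with adjusted p up to 0.165.

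Col4a2 measured 10.72, 10.36 and 10.50 in VPA4h, 10.86, 10.34 and 10.62 in Ctrl4h, 11.04 and 11.05 in Ctrl16h, 11.08, 11.12 and 11.005 in VPA64h, and 11.001, 10.88 and 10.90 in Ctrl64h. All arrays of 16 and 64 h lay above all arrays of 4 h. The difference was 0.44 (SE 0.13, adjusted p = 0.0258) for Ctrl16h over Ctrl4h, 0.32 (SE 0.12, adjusted p = 0.0288) for Ctrl64h over Ctrl4h and 0.54 (SE 0.12, adjusted p = 0.0012) for VPA64h over VPA4h. The first held an adjusted p under 0.05 in 15, the second in 16 and the third in 22 of 22 alternatives. At 64 h the 2 genes stood in a different order, with Col4a1 lower in VPA64h than in Ctrl64h on all arrays (-0.19, 95% interval -0.44 to 0.06) and Col4a2 higher (0.14, 95% interval -0.11 to 0.39). Neither difference passed the test.

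Col15a1, of the basement membrane zone around vessels and other tissues, declined slowly. It read 6.74, 6.55 and 6.67 in VPA4h, 6.73, 6.62 and 6.76 in Ctrl4h, 6.38 and 6.51 in Ctrl16h, 6.16, 6.16 and 6.13 in VPA64h, and 6.35, 6.19 and 6.29 in Ctrl64h. From the 4 h groups, which overlapped, the arrays stepped down without overlap to Ctrl16h, Ctrl64h and VPA64h. No single step passed the test. The change was -0.25 in Ctrl16h over Ctrl4h (adjusted p = 0.0603) and -0.17 in Ctrl64h over Ctrl16h (adjusted p = 0.142). In VPA64h over Ctrl64h it was -0.125 (adjusted p = 0.305). These levels are near the array medians, so this probe set too was dim. The net change was -0.42 (SE 0.08, adjusted p = 0.000343) for Ctrl64h over Ctrl4h and -0.50 (SE 0.08, adjusted p = 8.64e-05) for VPA64h over VPA4h, each past the adjusted p in 22 of 22 alternatives and short of 2-fold. A small fall was not particular to Col15a1. Of 23 other non-fibrillar collagens, 14 were lower and 1 was higher in Ctrl64h than in Ctrl4h at an adjusted p under 0.05. The median change of that list was -0.283, and 56.7% of all probe sets passed in either direction. The endothelial marker means given above were likewise highest at 4 h and lowest in VPA64h, and their part in the Col15a1 change was not tested.

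With VPA 1 collagen was called at each time. Only Col12a1 was called in VPA4h against Ctrl4h, 1 of 10 where 1.42% of all probe sets were called. In VPA64h against Ctrl64h only Col14a1 was called, 1 of 10 against 2.14% of all. Col8a1 was the second gene at an adjusted p under 0.05 at 64 h, making 2 of 10 where 24% of all probe sets passed, and 2 of 10 at a 1.5-fold limit, where 7.74% did. All 3 genes were lower with VPA. For the other 7 genes at 64 h, the VPA effect ran from -0.19 (Col4a1) to 0.20 (Col6a1).

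**Figure D3:**
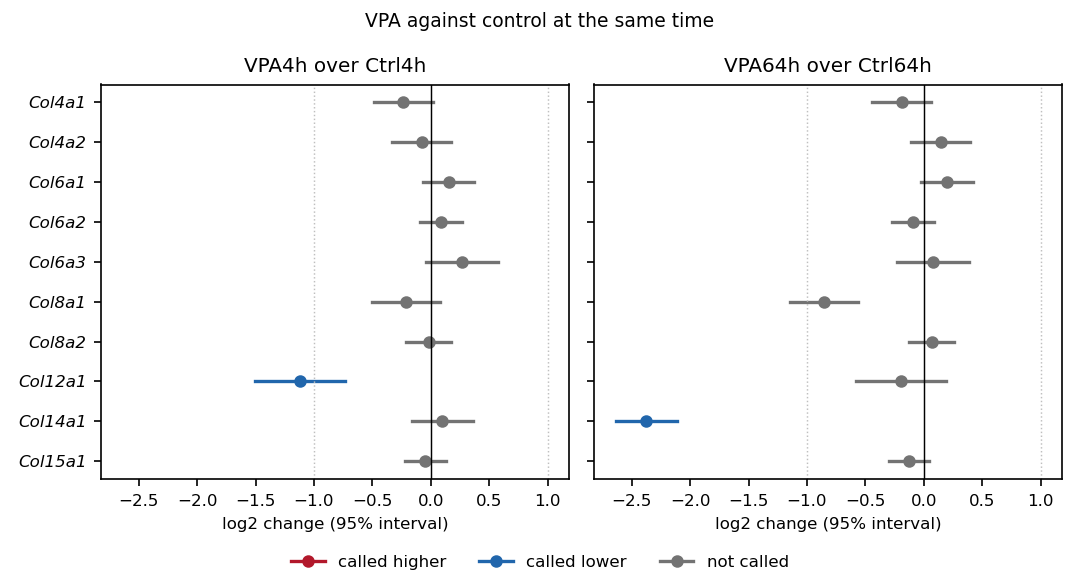
Log2 change of each collagen gene with VPA (x axis, with its 95% interval as a bar) in VPA4h over Ctrl4h and VPA64h over Ctrl64h, with called genes in blue (all lower) and the others in grey; dotted lines mark a 2-fold change. Col12a1 alone is called at 4 h and Col14a1 alone at 64 h, while Col8a1 at 64 h lies at -0.85, inside the 2-fold line.

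Whether the VPA effect differed between the 2 times was tested by their difference, 64 h minus 4 h. It was -2.47 for Col14a1 (SE 0.17, adjusted p = 6.57e-07), which was called, 1 of 10 where 2.59% of all probe sets were. It was 0.92 for Col12a1 (SE 0.26, adjusted p = 0.0221) and -0.64 for Col8a1 (SE 0.19, adjusted p = 0.0312), so that 3 of 10 had an adjusted p under 0.05 against 15.9% of all, and 3 of 10 at a 1.5-fold limit against 9.45%. The Col12a1 effect was weaker after 64 h and the effects on Col14a1 and Col8a1 were stronger. Col12a1 kept an adjusted p under 0.05 in 16 and Col8a1 in 13 of 22 alternatives.

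Relative to Ctrl4h, VPA64h cells had 3 called collagens of 10, Col8a1 (3.32, adjusted p = 3.13e-11) and Col12a1 (1.58, adjusted p = 2.37e-06) higher and Col14a1 (-2.38, adjusted p = 2.95e-10) lower, where 9.47% of all probe sets were called. The same 3 genes in the same directions were called in VPA64h against VPA4h, where 7.55% of all were. With no fold limit 6 of 10 passed in either comparison, against 57% of all probe sets for VPA64h over Ctrl4h and 50.4% for VPA64h over VPA4h. These comparisons share the VPA64h arrays. For Col14a1 the change of -2.38 stands beside -0.0012 in Ctrl64h over Ctrl4h, and for Col12a1 the change of 1.58 stands beside 1.77.

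Profiles of chains of 1 collagen type were compared over the 14 arrays. After each gene was centred on its own mean, the root mean square difference between profiles was 0.24 for Col4a1 and Col4a2 and 0.21 for Col6a2 and Col6a3. It was 0.41 for Col6a1 and Col6a2, 0.45 for Col6a1 and Col6a3, and 1.84 for Col8a1 and Col8a2. Pearson correlations of these pairs were, in the same order, 0.51, 0.38, 0.43, 0.24 and -0.23. The root mean square difference is small for any 2 genes that vary little. For Col6a2 and Col8a2, of different types, it was 0.10. The Col8a2 probe set was dim, so its distance from Col8a1 is not read as a difference between the chains. By the root mean square difference, 6505 genes that varied by an SD of at least 0.3 were compared with single collagens. The gene nearest to Col6a1 was Cst3 (0.09), which encodes the secreted protease inhibitor cystatin C, followed by Glul (0.13), glutamine synthetase. Nearest to Col12a1 were Vgll3 (0.22), a cofactor of TEAD transcription factors, and Steap2 (0.32), a metalloreductase. For Col8a1 they were S100a6 (0.31), a calcium-binding protein, and Tmem45a (0.41), and for Col14a1 Tmem204 (0.29) and Cfb (0.41), complement factor B. The paper states that qPCR did not reproduce its array result for Tmem204. The qPCR primers listed in the paper include none for Col14a1. The other 6 collagens varied by an SD of 0.10 to 0.27, less than the genes they would be set against, so no neighbours are given for them.

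The rest of the collagen pathway was read from 5 lists. Of 11 fibrillar collagens 4 were called higher in Ctrl64h over Ctrl4h, where 6.68% of all probe sets were called higher and 3.71% lower. Col5a2 led with 2.35 (adjusted p = 1.74e-09), ahead of Col3a1 (1.504) and Col1a1 (1.27). With VPA at 64 h 1 of the 11 was called, Col3a1, which changed by -2.06 (SE 0.19, adjusted p = 1.68e-06), at 10.26 ± 0.40 in VPA64h and 12.32 ± 0.21 in Ctrl64h. In this comparison 1% of all probe sets were called higher and 1.14% lower.

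Of 23 other non-fibrillar collagens only Col4a5, a further collagen IV chain, was called in Ctrl64h over Ctrl4h, by 1.16 (SE 0.14, adjusted p = 4.84e-06). There 10.4% of all probe sets were called. Without the fold limit 14 were lower and 1 was higher, against 56.7% of all. In Ctrl16h over Ctrl4h only Col6a5, a further collagen VI chain, was called, at -1.14 (SE 0.15, adjusted p = 6.22e-05), against 1.91% of all. With VPA at 64 h 5 had an adjusted p under 0.05, of which 2 were higher and 3 were lower, each short of 2-fold. This share of 5 in 23 is near the 24% of all probe sets. Among 22 measured basement membrane partners, Nid2, which links laminin to collagen IV, rose by 3.35 (SE 0.15, adjusted p = 9.44e-11) and Smoc2, a matricellular protein, changed by -1.31 (SE 0.11, adjusted p = 5.15e-08) in Ctrl64h over Ctrl4h. Agrn (agrin, a heparan sulfate proteoglycan) and Lama5 (laminin α5) were higher by 1.61 and 1.11 in VPA64h over Ctrl64h (adjusted p = 2.79e-06 and 2.07e-06). Of the 22, 1 gene was called higher and 1 lower in Ctrl64h over Ctrl4h, near the 10.4% of all probe sets called. With VPA at 64 h 2 were called higher, where 1% of all probe sets were.

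In the list of collagen receptors and related matrix receptors 13 genes were measured. Of these, 2 were called in Ctrl64h over Ctrl4h, the integrin chains Itga1 (1.45) and Itga3 (1.05), both higher. There 6.68% of all probe sets were called higher. With VPA at 64 h 1 was higher and 4 were lower at an adjusted p under 0.05, which 24% of all probe sets reached, each short of 2-fold. Of 18 genes for collagen modification and secretion 7 were called higher in Ctrl64h over Ctrl4h, against the same 6.68% of all probe sets. The list had a median change of 0.73, beside -0.0887 over all probe sets. The largest changes were those of the prolyl 4-hydroxylase subunits P4ha3 (1.67) and P4ha1 (1.51) and of the prolyl 3-hydroxylase P3h2 (1.56), which hydroxylate prolines of collagen chains. With VPA at 64 h P4ha3 alone was called, at -1.18 (SE 0.13, adjusted p = 1.11e-05), and P3h2 averaged 9.86 ± 0.12 in VPA64h and 9.86 ± 0.08 in Ctrl64h.

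**Figure D4:**
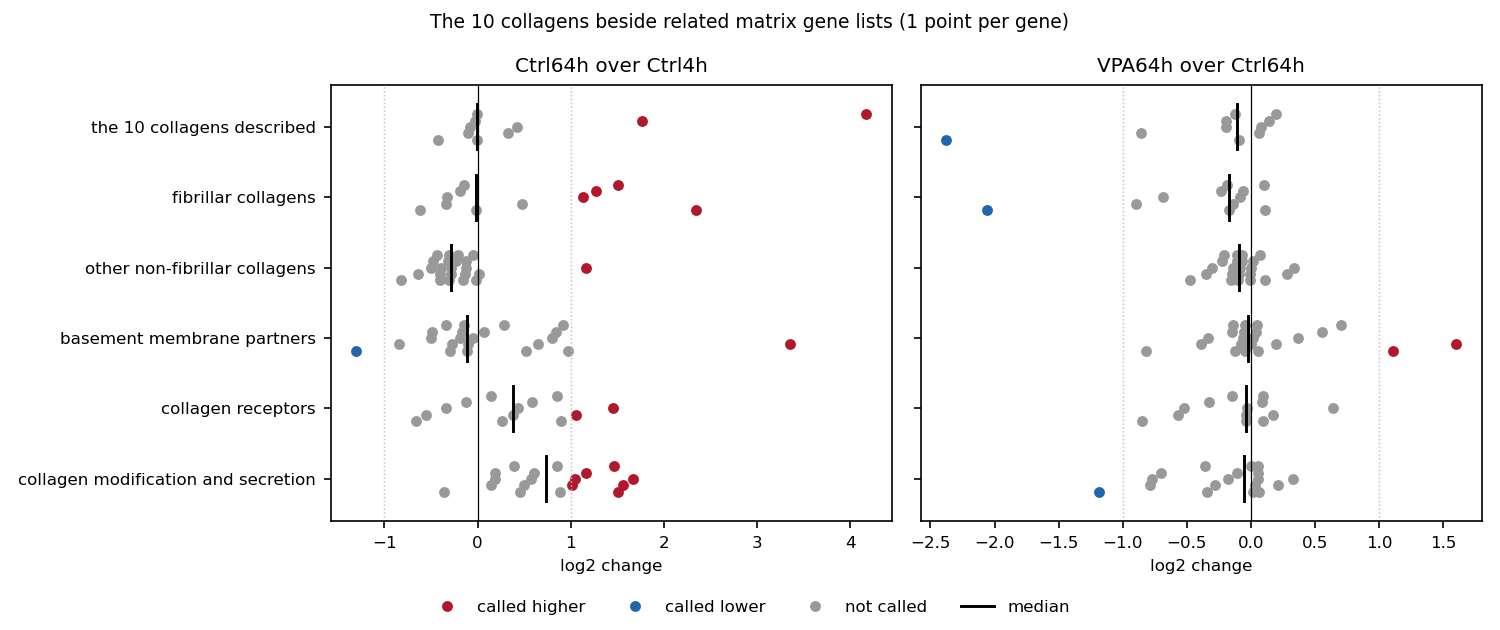
Log2 change (x axis) in Ctrl64h over Ctrl4h and in VPA64h over Ctrl64h for the 10 collagens and for the genes of 5 related lists, with 1 point per gene, red for called higher, blue for called lower, grey for not called and a black line at each median; dotted lines mark a 2-fold change. Col8a1 at 4.17 is the farthest point over time, and Col14a1 at -2.38 and Col3a1 at -2.06 are the farthest with VPA.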

How the data were processed

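The authors deposited 1 table of log2 expression values for 14 Affymetrix Mouse Gene 1.0 ST arrays, made by RMA, which corrects background, equalises the distribution of intensities between arrays and summarises probes. The paper names GeneSpring GX and the submitters' notes Affymetrix Expression Console; settings are not given in the sources used here. RMA forces equal overall levels, so changes are relative to other genes. The values were used as deposited. Arrays give no counts, and the number of arrays limits the precision.

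Groups and replicate numbers came from the sample labels, and the paper calls the replicates independent. No 2 arrays were identical. Probe sets were named from the platform annotation. Group means were compared with limma 3.58.1 (R 4.3.3; lmFit, eBayes; two-sided) in 1 model of all groups (9 residual degrees of freedom, 6.52 prior) and with Benjamini-Hochberg adjustment over the 23410 probe sets with a symbol. Calls required an adjusted p under 0.05 and 2-fold. The fit was tested on simulated data. The p-values measure the spread between these arrays.

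All 10 genes are named. From each related list up to 3 called genes with the largest change in Ctrl64h against Ctrl4h and in VPA64h against Ctrl64h are named. Named with them are the 2 nearest genes of the 4 collagens that varied enough and the markers Acta2, Des and Lrat. Reln, Hand2, Gfap, Alb, Lyz2, Plvap, Thy1, Cd34 and Col6a5 were chosen after their values were seen. The genes and lists were chosen with earlier results of these data known. Same-numbered arrays deviated together in VPA4h and Ctrl4h (correlations 0.14 to 0.28) in VPA64h and Ctrl64h (0.16 to 0.17) and in VPA64h and Ctrl4h (0.11 to 0.18), with all 3 pairs above 0.1, so the numbers were taken to pair these samples. The other group pairs had at least 1 correlation under 0.1, down to -0.24 between Ctrl16h and VPA64h.

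Alternatives were other scalings (array median, housekeeping genes), probe set filters, all probe sets, mean probe sets, other eBayes settings, fewer groups in the fit, a one-way F test, other fold limits, a replicate block and leaving out each array. Promoters came from RefSeq (GRCm38.p6).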

Additional observations from a re-analysis of the deposited data

Results flagged for a closer look

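The VPA effect differed between the 2 times for 3 collagens, by the test of the difference itself (limma, 64 h minus 4 h). For Col14a1 the difference was -2.47 (SE 0.17, adjusted p = 6.57e-07), with an effect of -2.38 at 64 h and 0.10 at 4 h. For Col12a1 it was 0.92 (SE 0.26, adjusted p = 0.0221), with -0.19 at 64 h and -1.12 at 4 h. For Col8a1 it was -0.64 (SE 0.19, adjusted p = 0.0312), with -0.85 at 64 h and -0.21 at 4 h. No group had the 4 arrays that a search for single outlying arrays needs.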

How the results depend on the processing

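The 8 comparisons of 10 collagens gave 80 changes, each recomputed under 23 alternatives other than fold limits. Of the 1840 values 1835 kept their direction and side of the threshold or, for uncalled values, stayed uncalled, 1 lost its call, 4 gained one and 0 called values changed sign; 32 uncalled values changed sign. The lost call was that of Col12a1 in VPA4h against Ctrl4h without VPA4h replicate 2 (-0.96), so that the count of called collagens there was 0 to 1 over the left-out arrays. The difference of the VPA effects counted 1 to 2, since Col12a1 was called without Ctrl4h replicate 2 (1.10), VPA4h replicate 3 (1.04), Ctrl64h replicate 3 (1.09) or VPA64h replicate 2 (1.03). Fewer arrays enter these fits.

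With no fold limit the counts of collagens became 5 for Ctrl16h and 5 for Ctrl64h over Ctrl4h, 2 for VPA64h over Ctrl64h, 6 for VPA64h over VPA4h, 6 for VPA64h over Ctrl4h and 3 for the difference of the VPA effects, and with a limit of 1.5-fold 2 in VPA64h against Ctrl64h and 3 for the difference. Col4a2 in Ctrl16h and Ctrl64h over Ctrl4h, Col4a1 in Ctrl64h over Ctrl16h, and Col8a1 and Col12a1 in the difference of the VPA effects had an adjusted p above 0.05 in 7, 6, 7, 9 and 6 of 22 alternatives. Conversely, 7 values with an adjusted p above 0.05 passed it under some alternatives, Col6a2 (6) and Col6a3 (3) in VPA64h over VPA4h, Col4a1 (2), Col15a1 (2), Col6a2 (1) and Col8a2 (1) in Ctrl16h over Ctrl4h, and Col6a2 (1) in Ctrl64h over Ctrl16h. Centring on housekeeping genes moved the median of all probe sets by -0.206 (Ctrl16h against Ctrl4h), -0.134 (Ctrl64h against Ctrl4h) and -0.118 (VPA64h against VPA4h), and changed no call of the collagens. Called higher were then 78 of 532 probe sets in Ctrl16h against Ctrl4h (165 of 448 as reported), 1210 of 2348 in Ctrl64h against Ctrl4h (1564 of 2432), 936 of 1643 in VPA64h against VPA4h (1231 of 1768), 262 of 360 in VPA4h against Ctrl4h (203 of 333) and 300 of 511 in VPA64h against Ctrl64h (234 of 502). The cause was not tested. The 12 housekeeping genes measured were not all stable themselves. In Ctrl64h against Ctrl4h 2 of them were called higher and 2 lower, where 10.4% of all probe sets were called. In VPA64h against Ctrl64h 1 was called lower, where 2.14% of all were called. With the replicate number as a block, 3 collagens remained called in Ctrl16h against Ctrl4h, 2 in Ctrl64h against Ctrl4h, 1 in VPA4h against Ctrl4h and 1 in VPA64h against Ctrl64h, and the pairing changed no call of the 10 genes.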
